A study of Homo sapiens with 12 samples.

Results

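The 78 genes described here carry the symbols given to proteins of the mitochondrial ribosome. They are the protein-coding genes whose symbol is MRPL or MRPS followed by a digit, among 58735 listed genes, 19951 of them protein-coding, in the table of the renal cancer line 786-O. By symbol, 29 belong to the small subunit (MRPS) and 49 to the large subunit (MRPL), and all 78 symbols are also in the table of the bladder cancer line 5637. They lie on 21 chromosomes. The names do not always match the place of the protein: in solved structures MRPS30 and MRPS18A sit in the large subunit, and MRPS36 is not a ribosomal subunit.

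RNA-seq was made from 12 libraries in 4 groups of 3: 5637 sh control, 5637 shCBX7, 786-O sh control and 786-O shCBX7. Both lines are established human tumour lines, grown in the same medium with serum, and no drug or other agent is given for any group. In the shCBX7 groups a short hairpin RNA targets CBX7, a chromobox subunit of the Polycomb repressive complex PRC1, and the series asks how expression in each line responds to lower CBX7. The labels do not say how many hairpins or clones were used, the table columns name the silenced arms si, and 2 of the 5637 control titles give another line number although their cell line label is 5637. No label says whether the libraries of a group are separate cultures. The p-values thus reflect library-to-library spread alone, and this may be technical.

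The mitochondrial ribosome translates the messages encoded on mitochondrial DNA, all of which make core subunits of the respiratory chain and ATP synthase. Its ribosomal RNAs are transcribed inside the organelle, while every protein of it is encoded in the nucleus, made in the cytosol and imported. The small subunit binds the message and reads its codons, and the large subunit forms the peptide bonds and is held at the inner membrane, where new chains are inserted. Many of the proteins have a bacterial counterpart, and others are found only in mitochondria.

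Windows around the RefSeq start of 4 members are shown because these genes carry the results below: MRPS11, MRPL20 and MRPS12 had the largest falls in 786-O, and MRPS15 was lower in both lines. Each sequence runs 5′ to 3′ on the strand of the gene from 250 bases before to 50 bases after the start that RefSeq gives (GRCh38.p14). Capitals mark the letters CCGGAAG (the core bound by ETS factors such as GABPA) and AAGATGGC (the core bound by YY1), on either strand. They also mark GCGCATGC (part of the site bound by NRF1) and TATAAA (the letters of a TATA box), on either strand. The windows are chr15:88467458-88467757 on the plus strand for MRPS11, chr1:1407244-1407543 on the minus strand for MRPL20, chr19:38930694-38930993 on the plus strand for MRPS12 and chr1:36464335-36464634 on the minus strand for MRPS15. The RefSeq start lies downstream of the gene start given in the 786-O table by 255 bases in MRPS11, 396 in MRPS12, 53 in MRPS15 and 20 in MRPL20. By the table, the windows of MRPS11 and MRPS12 therefore lie wholly inside the gene and leave out the bases before its first start.
MRPS11: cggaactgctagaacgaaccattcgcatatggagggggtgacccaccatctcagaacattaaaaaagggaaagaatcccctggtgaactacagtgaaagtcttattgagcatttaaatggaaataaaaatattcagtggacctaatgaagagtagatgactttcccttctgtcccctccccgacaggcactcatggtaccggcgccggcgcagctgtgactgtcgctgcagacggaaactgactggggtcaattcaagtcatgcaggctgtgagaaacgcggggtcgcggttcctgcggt
MRPL20: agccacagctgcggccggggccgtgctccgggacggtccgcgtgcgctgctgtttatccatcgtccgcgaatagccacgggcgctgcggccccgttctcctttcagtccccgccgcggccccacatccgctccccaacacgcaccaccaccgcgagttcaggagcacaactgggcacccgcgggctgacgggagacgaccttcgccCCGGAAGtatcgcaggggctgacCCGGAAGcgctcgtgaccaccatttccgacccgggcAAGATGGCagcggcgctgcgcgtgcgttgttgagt
MRPS12: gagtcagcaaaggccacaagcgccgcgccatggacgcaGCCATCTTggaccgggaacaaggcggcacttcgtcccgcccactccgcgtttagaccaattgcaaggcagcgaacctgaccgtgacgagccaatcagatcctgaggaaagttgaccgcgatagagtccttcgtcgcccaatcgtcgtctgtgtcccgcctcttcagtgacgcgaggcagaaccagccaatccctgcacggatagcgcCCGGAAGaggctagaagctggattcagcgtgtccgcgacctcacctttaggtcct
MRPS15: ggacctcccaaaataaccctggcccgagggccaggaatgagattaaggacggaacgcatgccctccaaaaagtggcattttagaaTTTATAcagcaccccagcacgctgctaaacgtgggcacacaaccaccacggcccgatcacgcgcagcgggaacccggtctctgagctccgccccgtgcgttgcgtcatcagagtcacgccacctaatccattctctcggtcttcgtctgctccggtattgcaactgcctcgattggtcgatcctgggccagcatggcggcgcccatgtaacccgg
The MRPL20 window held 2 copies of CCGGAAG and 1 of AAGATGGC, and that of MRPS12 held 1 of each, the second on the other strand. None of the 4 strings was in the MRPS11 window, and the MRPS15 window held only TATAAA, on the other strand.

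Of the 78 members, 69 had a promoter window in the RefSeq table, and in 21 of them it lies wholly inside the gene by the positions of the 786-O table. CCGGAAG was found in 29 of them (42.0%), against 10.7% of all 27305 promoters and 20.5% of the 8880 promoters of protein-coding genes that were tested in 786-O. AAGATGGC was found in 20 (29%), against 3.03% and 5.68%. In all, 41 members held either string, 8 held both and 28 held neither. GCGCATGC was in 6 members (8.7%, against 3.27% and 5.69%). TATAAA was in 2, MRPL54 and MRPS15 (2.9%, against 12% and 4.94%). Its letters were counted at any place in the window and on either strand, so a working TATA box is not shown. These strings were 4 of 13 searched on both strands. Of the others, 3 were longer forms of the first 3. The rest were the GC box (GGGCGG), the E box (CACGTG), the inverted CCAAT box (ATTGG), a pyrimidine run (CTTTCC), a string close to the second (AAATGGC) and a palindrome known from promoters of housekeeping genes. Promoters of 1 family were set beside all others here as a description, with no test.

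Depth and the general state of the libraries were as follows. Reads in listed genes, recovered from the steps of the FPKM values (fragments divided by gene length and by a library total), lay between 17744838 and 29198096 for the 5637 libraries and between 16384151 and 18868874 for those of 786-O. Libraries of the same arm had correlations of 0.995 to 0.996 on the log scale in 5637, and those of different arms 0.989 to 0.991. For 786-O the ranges were 0.991 to 0.993 and 0.964 to 0.965. CBX7 itself was lower in every silenced library, at 2.19, 2.17 and 2.42 FPKM in the control and 1.86, 1.80 and 1.97 FPKM in the shCBX7 libraries of 5637, and at 1.63, 1.75 and 1.49 against 1.01, 0.892 and 1.07 FPKM in 786-O. Epithelial markers, 12 listed, summed to 2235 to 2257 FPKM in control and 2473 to 2497 FPKM in shCBX7 libraries of 5637, none of them at 0. In 786-O the same markers summed to 332 to 403 and 432 to 480 FPKM with KRT5 and KRT14 at 0, and the 8 renal carcinoma markers to 501 to 503 and 468 to 508 FPKM. Leukocyte markers, 6 listed, summed to 17.4 to 21.7 in control and 9.2 to 10.1 FPKM in shCBX7 libraries of 786-O, with PTPRC and CD3E at 0, and to 56.4 to 58.5 and 53.7 to 54.3 FPKM in 5637, with CD3E among those at 0. Endothelial markers (5 listed) summed to at most 0.909 FPKM in 786-O and 2.28 FPKM in 5637, and fibroblast markers (6 listed) to at most 3.15 and 14.8 FPKM. The part of these shifts in the results below was not tested, and in bulk RNA fewer cells of a kind and less RNA per cell cannot be told apart.

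In 786-O, most mitochondrial ribosomal protein genes were lower after CBX7 silencing. Of 78 members, all of them tested, 45 fell and 3 rose, where a rise or fall is a limma adjusted p under 0.05 on log2(FPKM + 1). Among all 13220 genes tested, 51% were called, 24.7% as higher and 26.2% as lower, so that 57.7% of members lower stood against 26.2% of all genes and 3.85% higher against 24.7%. The median log2 change of the members was -0.28 (range -1.43 to 0.43), and that of all genes -0.01. Negative values were found in 68 of 78. The arms did not overlap in 51 of 78 members (48 lower, 3 higher). As a share in either direction this was near the 60.3% of all genes, for which the directions were counted together. Most falls were modest: on log2(FPKM + 1), 6 called members changed by at least 1.5-fold and 3 by at least 2-fold, and by the means of FPKM themselves 8 and 3 did. MRPS36, which is not a ribosomal subunit, is counted among the falls. Its arms overlapped in 786-O, and its call was lost under 7 alternatives. Without sh control library 1, the number higher was 5 in place of 3.

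In 5637, the genes moved the other way and less far. Of the 75 members that could be tested, 31 rose and 7 fell. Of all 12689 genes tested, 44.5% were called, 24.4% as higher and 20.2% as lower, so that 41.3% of tested members higher stood against 24.4% and 9.33% lower against 20.2%. The median log2 change was 0.07 (range -0.30 to 0.37), that of all genes was 0.01, and 56 of 75 values were positive. The arms did not overlap in 41 of the 75 members (33 higher, 8 lower). As a share in either direction this was near the 56.4% of all genes, again with the directions counted together. No called member reached 1.5-fold on either scale.

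**Figure D1:**
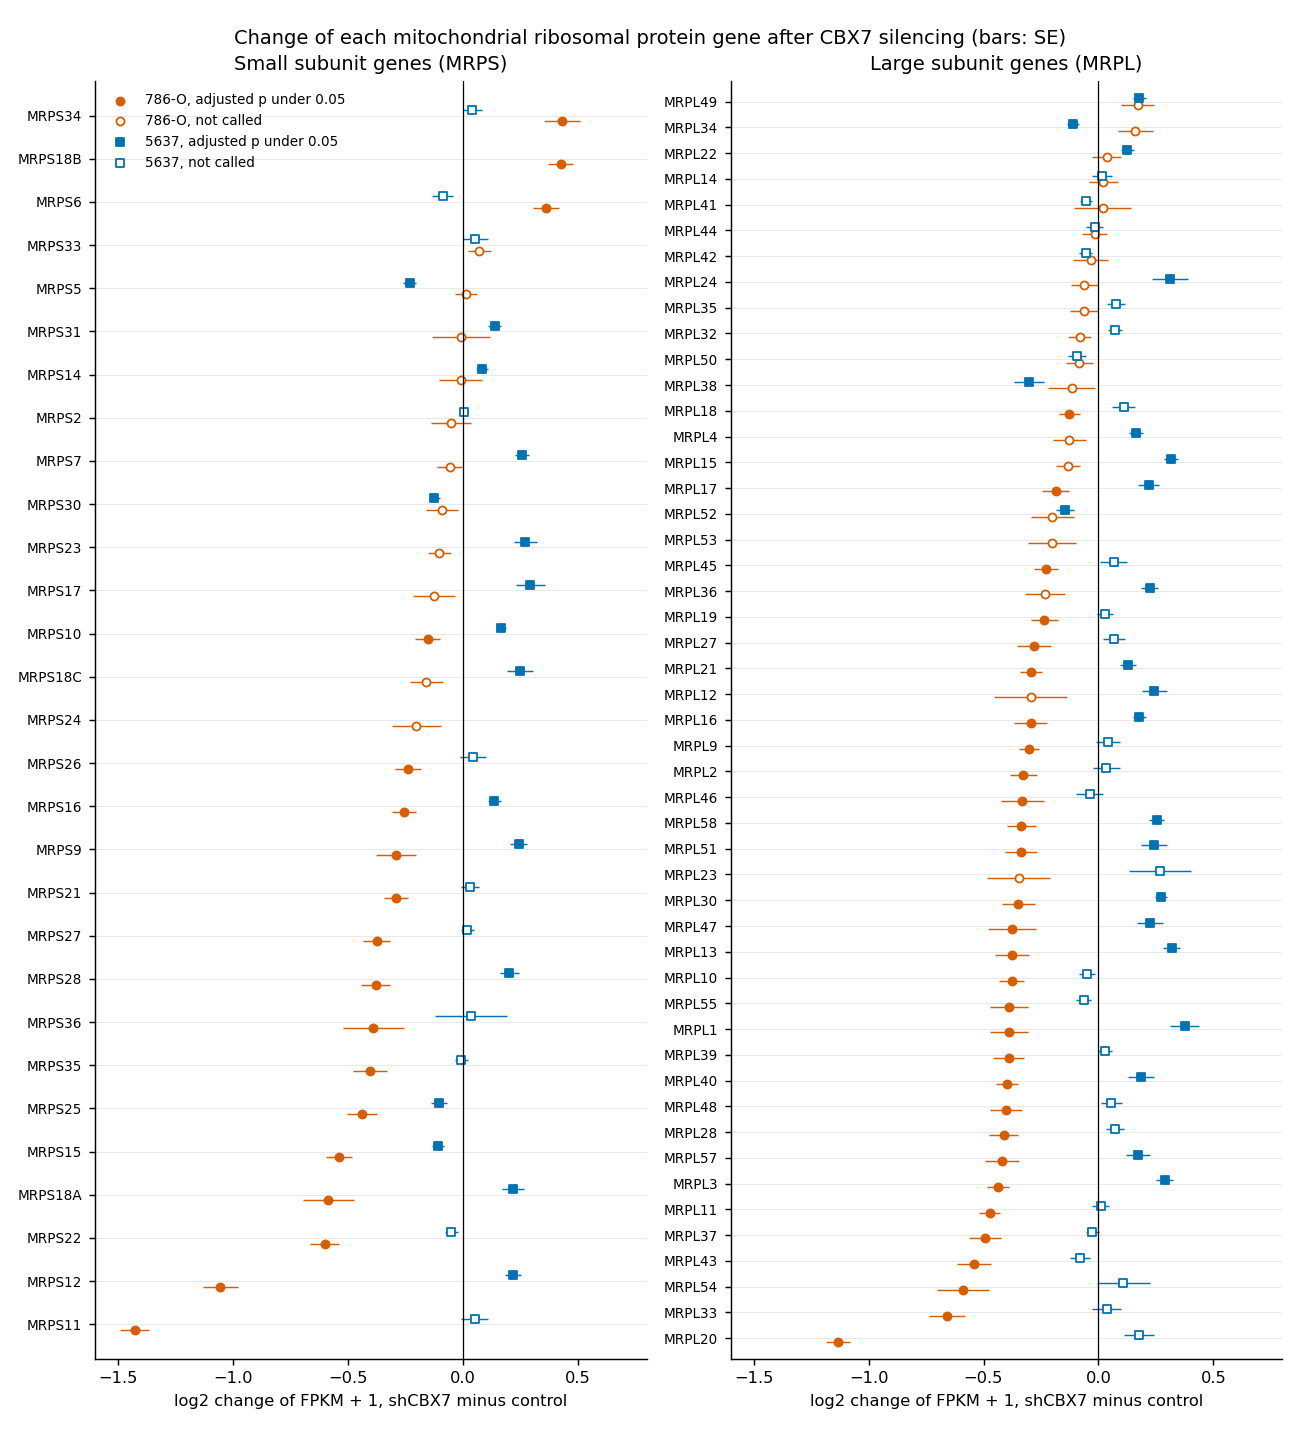
Log2 change of FPKM + 1 (shCBX7 minus control, bars: standard error) for each small subunit gene (left) and large subunit gene (right), ordered by the change in 786-O; circles are 786-O and squares 5637, and filled symbols have a limma adjusted p under 0.05. Most 786-O circles lie left of 0, down to -1.43 for MRPS11, while most 5637 squares lie between -0.30 and 0.37, more of them right of 0 than left.

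The steepest fall among the members was that of MRPS11 (ENSG00000181991, chromosome 15, 88467453 to 88480773, plus strand), the counterpart of a bacterial protein at the platform of the small subunit, beside the path of the message. In 786-O it stood at 9.79, 8.82 and 8.70 FPKM in the control and at 2.87, 2.78 and 2.61 FPKM in the shCBX7 libraries. The arms were far apart, and 30.3% of the control mean was left (log2 change -1.43, SE 0.06, limma adjusted p = 3.88e-06). In 5637 it was at 2.24, 2.78 and 2.50 against 2.59, 2.56 and 2.74 FPKM. There the arms overlapped (log2 change 0.05, limma adjusted p = 0.507). MRPS11 rested on 261 to 919 reads per library in 786-O and 277 to 501 in 5637.

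MRPL20 (ENSG00000242485, chromosome 1, 1401908 to 1407313, minus strand), the counterpart of a bacterial protein that binds ribosomal RNA early in assembly of the large subunit, was next. Its levels in 786-O were 38.4, 35.3 and 35.3 FPKM in the control and 16.6, 15.4 and 16.1 FPKM in the shCBX7 libraries. All silenced libraries were below all controls, at 44.1% of the control mean (log2 change -1.13, SE 0.05, limma adjusted p = 5.54e-06). In 5637 the values were 9.38, 9.23 and 8.05 against 9.61, 9.85 and 11.04 FPKM. Here the silenced libraries were all above the controls, but the rise missed the threshold (log2 change 0.18, limma adjusted p = 0.0676). The opposite-strand gene AL391244.1 overlaps MRPL20. In 786-O it was at 8.42 ± 0.636 FPKM in the control and 9.80 ± 0.688 FPKM in the silenced libraries (SD, n = 3, limma adjusted p = 0.0523), not lower.

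MRPS12 (ENSG00000128626, chromosome 19, 38930548 to 38933162, plus strand) encodes the counterpart of bacterial S12, a protein of the decoding centre. Its control libraries in 786-O held 56.8, 47.2 and 49.7 FPKM and its shCBX7 libraries 25.6, 23.2 and 23.6 FPKM. It stood at 47.1% of the control mean with no overlap (log2 change -1.05, SE 0.08, limma adjusted p = 3.17e-05). In 5637 it was at 8.85, 9.54 and 9.08 in the control against 10.5, 10.9 and 11.1 FPKM, again without overlap but higher (log2 change 0.22, limma adjusted p = 0.00228). It is the member with the steepest 786-O fall among those that rose in 5637. SARS2, which overlaps MRPS12 on the opposite strand, was at 0.519, 0.422 and 0.319 FPKM in the control and 0.0979, 0.0557 and 0.139 FPKM in the silenced libraries of 786-O, too low to be tested, and at 1.08 ± 0.1 and 1.08 ± 0.00355 FPKM in 5637 (SD, n = 3, limma adjusted p = 0.927).

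**Figure D2:**
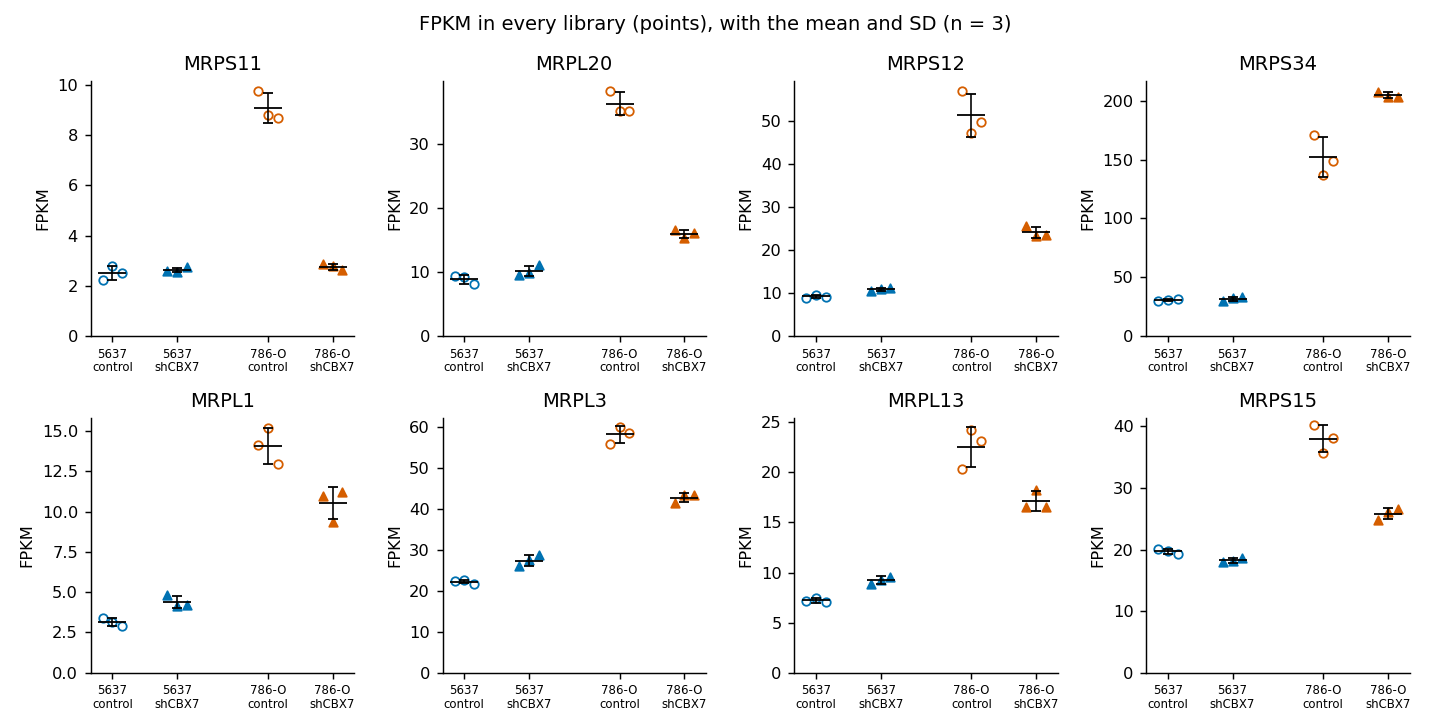
FPKM in every library for 8 members, with open circles for control and filled triangles for shCBX7 libraries, and the mean and SD (n = 3) as black bars; each panel starts at 0 and levels of the lines come from tables normalised separately. In 786-O the triangles lie below the circles for MRPS11, MRPL20, MRPS12, MRPL1, MRPL3, MRPL13 and MRPS15 and above them for MRPS34, while in 5637 MRPS12, MRPL1, MRPL3 and MRPL13 go up and MRPS15 goes down.

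After these 3, the largest falls in 786-O were those of MRPL33, MRPS22 and MRPL54. MRPL33, whose bacterial counterpart is a small protein of the large subunit, went from 60.4, 66.1 and 68.2 FPKM to 36.6, 42.3 and 43.5 FPKM (log2 change -0.66, limma adjusted p = 3.29e-04). MRPS22, found only in mitochondria, went from 8.51, 8.73 and 8.70 to 5.40, 5.84 and 4.90 FPKM (log2 change -0.60, limma adjusted p = 2.08e-04). MRPL54, also found only in mitochondria, went from 41.9, 35.03 and 33.95 to 20.8, 24.6 and 27.4 FPKM (log2 change -0.59, limma adjusted p = 0.00364). In none of the 3 did the arms overlap in 786-O, and in all 3 they overlapped in 5637. There MRPL33 had 15.2, 17.5 and 15.95 FPKM in the control and 17.8, 15.4 and 16.7 FPKM in the silenced libraries. MRPS22 had 7.97, 8.18 and 8.15 against 8.05, 7.73 and 7.60 FPKM, and MRPL54 had 7.56, 10.5 and 7.95 against 8.82, 8.87 and 10.4 FPKM. Genes whose spans overlap those of MRPS22 and MRPL33 moved too, though whether exons overlap was not examined. COPB2, which overlaps MRPS22 on the other strand, went from 23.6 ± 1.42 to 18.0 ± 0.186 FPKM in 786-O (SD, n = 3, limma adjusted p = 9.63e-04). For MRPL33, the overlapping BABAM2 went from 10.6 ± 1.04 to 8.56 ± 0.71 FPKM and RBKS from 2.77 ± 0.116 to 1.86 ± 0.186 FPKM (SD, n = 3, limma adjusted p = 0.0248 and 0.00234). The kit marks strand, but whether counting used it is not given in the sources used here, so the part of shared reads was not tested.

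The 3 members that rose in 786-O belong to the small subunit. MRPS34 (ENSG00000074071, chromosome 16, 1771890 to 1773155, minus strand), a protein found only in mitochondria that helps to keep the small subunit stable, was at 171, 137 and 149 FPKM in the control and at 208, 204 and 204 FPKM after silencing (log2 change 0.43, SE 0.08, limma adjusted p = 0.00264). MRPS18B (ENSG00000204568, chromosome 6, 30617709 to 30626395, plus strand) was at 56.2, 52.4 and 52.6 against 76.0, 73.3 and 68.5 FPKM (log2 change 0.43, SE 0.05, limma adjusted p = 4.97e-04). MRPS6 (ENSG00000243927, chromosome 21, 34073224 to 34143034, plus strand), with a bacterial counterpart on the platform of the small subunit, was at 11.05, 10.2 and 9.65 against 13.8, 13.5 and 13.2 FPKM (log2 change 0.36, SE 0.06, limma adjusted p = 0.00152). All silenced libraries were above all controls for these 3 genes. In 5637, MRPS34 was at 29.6, 30.7 and 31.2 against 29.6, 31.9 and 32.9 FPKM and MRPS6 at 10.98, 9.99 and 9.47 against 9.45, 9.52 and 9.45 FPKM, both with overlapping arms. MRPS6 shares its span and strand with SLC5A3, which was also higher in 786-O, at 1.41 ± 0.0928 and 1.92 ± 0.217 FPKM (SD, n = 3, limma adjusted p = 0.0233). PPP1R10, on the strand opposite MRPS18B, went the other way, from 11.5 ± 0.0318 to 9.30 ± 0.231 FPKM (SD, n = 3, limma adjusted p = 0.00158). Without sh control library 1, MRPL34 was also called higher in 786-O (log2 change 0.24, limma adjusted p = 0.0125), as it was with voom on recovered reads (0.17, 0.0364).

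The 6 largest rises in 5637 were in MRPL1, MRPL13, MRPL15, MRPL24, MRPS17 and MRPL3. MRPL1 (ENSG00000169288, chromosome 4, 77862520 to 77952790, plus strand), the protein of the stalk past which spent transfer RNAs leave, had 3.41, 3.17 and 2.91 FPKM in the control and 4.81, 4.16 and 4.22 FPKM in the silenced libraries (log2 change 0.37, SE 0.06, limma adjusted p = 0.00301). MRPL13, whose bacterial counterpart joins the large subunit early, had 7.15, 7.47 and 7.01 against 8.85, 9.28 and 9.59 FPKM (log2 change 0.32, limma adjusted p = 6.08e-04). MRPL15 had 33.2, 31.8 and 33.9 against 42.0, 42.0 and 39.8 FPKM (log2 change 0.32, limma adjusted p = 4.08e-04). Silenced libraries were above controls throughout. MRPL24, with a bacterial counterpart at the mouth of the exit tunnel, had 11.3, 13.8 and 11.6 against 14.2, 16.3 and 15.7 FPKM (log2 change 0.31, limma adjusted p = 0.0159). Its call was lost without shCBX7 library 2 or without control library 3, with an adjusted p of up to 0.0533.

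MRPS17, a counterpart of a bacterial protein that binds small subunit RNA, rested on 74 to 131 reads per library in 5637 and had 1.56, 1.35 and 1.247 FPKM against 2.08, 1.82 and 1.86 FPKM (log2 change 0.29, limma adjusted p = 0.00825). MRPL3 (ENSG00000114686, chromosome 3, 131462212 to 131502983, minus strand), which reaches towards the peptidyl transferase centre, had 22.3, 22.7 and 21.8 against 26.0, 27.6 and 28.7 FPKM (log2 change 0.29, limma adjusted p = 0.00108). The arms of both genes did not overlap. NIPSNAP2, on the same strand over the span of MRPS17, went the other way, from 17.0 ± 0.171 to 14.97 ± 0.569 FPKM in 5637 (SD, n = 3, limma adjusted p = 0.00326). In 786-O, MRPL15, MRPL24 and MRPS17 did not pass the test, but with quantile normalization MRPL15 (log2 change -0.18, limma adjusted p = 0.0143) and MRPL24 (-0.15, 0.0308) were called lower. MRPL15 was at 94.6, 91.9 and 86.4 in the control and 80.6, 86.7 and 81.4 FPKM in the silenced libraries, MRPL24 at 79.2, 70.8 and 81.0 against 72.8, 74.3 and 73.6 FPKM and MRPS17 at 3.50, 2.88 and 3.396 against 3.03, 3.19 and 2.49 FPKM. The arms overlapped in all 3.

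Of the 7 falls in 5637, that of MRPL38 was the largest. MRPL38 (ENSG00000204316, chromosome 17, 75898643 to 75905413, minus strand), a protein of the central protuberance found only in mitochondria, had 1.86, 1.73 and 1.42 FPKM in the control and 1.17, 1.14 and 1.17 FPKM in the silenced libraries (log2 change -0.30, SE 0.07, limma adjusted p = 0.00892). MRPS5, with a bacterial counterpart at the entry of the message, had 6.30, 6.05 and 6.35 against 5.24, 5.15 and 5.10 FPKM (log2 change -0.23, limma adjusted p = 8.36e-04). The other 5 had smaller log2 changes, down to -0.15. MRPL52 had 15.8, 17.3 and 16.1 against 14.3, 14.7 and 15.3 FPKM (log2 change -0.15, limma adjusted p = 0.0207), a call that was lost without shCBX7 library 1 or 2 (adjusted p up to 0.0606). MRPS30 had 9.48, 9.62 and 9.67 against 8.51, 8.77 and 8.88 FPKM (log2 change -0.12, limma adjusted p = 0.00627). MRPL34, whose counterpart in bacteria is among their smallest ribosomal proteins, had 15.003, 14.6 and 14.9 against 13.2, 13.7 and 14.1 FPKM (log2 change -0.11, limma adjusted p = 0.0143; 0.0581 with voom on recovered reads). The arms of all these genes were separate.

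The 5 genes given here were not called in 786-O. MRPL38 was there at 1.05, 0.819 and 0.860 in the control and 0.849, 0.557 and 0.888 FPKM in the silenced libraries, and MRPS5 at 13.5, 13.06 and 13.004 against 13.3, 12.9 and 13.8 FPKM. MRPL52 was at 47.4, 41.2 and 43.6 against 33.2, 39.7 and 42.2 FPKM, and was called lower with voom on recovered reads (log2 change -0.20, limma adjusted p = 0.0271). MRPS30 was at 13.6, 11.9 and 12.4 against 12.9, 11.3 and 11.3 FPKM and MRPL34 at 60.01, 49.2 and 53.2 against 57.7, 60.8 and 62.8 FPKM. All 5 had overlapping arms. The difference between the lines passed the test for MRPS5 (-0.24 on the log2 scale, limma adjusted p = 0.00134) and MRPL34 (-0.27, 0.0184), and not for MRPL38 (-0.19, 0.198), MRPL52 (0.05, 0.699) or MRPS30 (-0.04, 0.717).

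Members that passed the test in both lines were mostly called in opposite directions. Of the 75 tested in both, 18 (24%) rose in 5637 and fell in 786-O, against 7.52% (779) of the 10354 genes tested in both lines. None did the reverse, 2 fell in both (MRPS15 and MRPS25), none rose in both and 10 were called in neither. By the sign of the change alone, 51 of 75 (68%) were positive in 5637 and negative in 786-O, against 28.1% of all genes. Across members, the changes of the lines had a Pearson r of -0.132 (n = 75 genes, which share the libraries), and across all genes 0.121. Of the 18, 11 kept both calls under every alternative run. In the others a call was lost. The 5637 call was lost under 6 alternatives in MRPL57, 5 in MRPL40, 3 in MRPL21 and 1 in MRPL47. The 786-O call was lost under 11 in MRPS10 (limma adjusted p up to 0.145), 7 in MRPL17, 6 in MRPS9 and 5 in MRPL47.

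**Figure D3:**
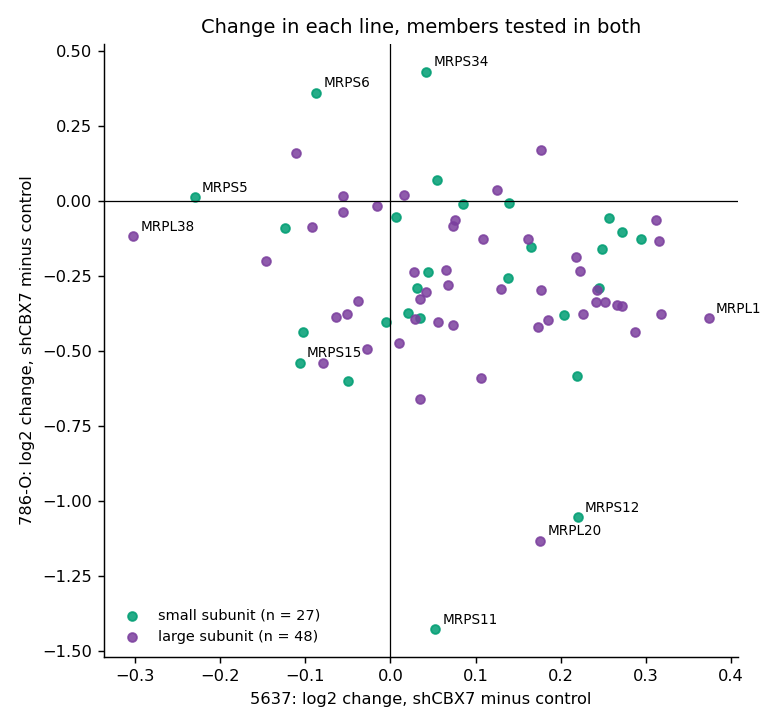
Log2 change (shCBX7 minus control) in 5637 on the x axis and in 786-O on the y axis for the 27 small and 48 large subunit genes tested in both lines; each point is a gene. Points crowd the lower right part of the plot, where 51 of 75 genes lie, and MRPS11, MRPL20 and MRPS12 sit lowest, at -1.05 or below in 786-O.

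Those with the largest smaller change were MRPL1, MRPL13, MRPL3, MRPL30, MRPL58 and MRPS9. MRPL1 in 786-O went from 14.1, 15.2 and 12.97 FPKM to 10.96, 9.38 and 11.2 FPKM (log2 change -0.39, limma adjusted p = 0.00569). MRPL13 went from 20.3, 24.2 and 23.2 to 16.5, 18.3 and 16.6 FPKM (log2 change -0.38, limma adjusted p = 0.00426) and MRPL3 from 56.0, 60.2 and 58.7 to 41.5, 43.6 and 43.5 FPKM (log2 change -0.44, limma adjusted p = 2.06e-04). All 3 had separate arms in 786-O as in 5637. MRPL30 stood in 5637 at 10.8, 11.3 and 10.7 in the control and 13.4 FPKM in each silenced library, and in 786-O at 9.03, 9.43 and 10.6 against 6.93, 7.76 and 7.47 FPKM. MRPL58, a release factor that became a ribosomal subunit and frees stalled chains, stood in 5637 at 19.8, 19.4 and 20.4 against 22.8, 24.2 and 24.7 FPKM, and in 786-O at 35.5, 31.2 and 32.7 against 25.9, 27.5 and 24.7 FPKM. MRPS9, whose bacterial counterpart reaches the transfer RNA in the peptidyl site, stood in 5637 at 5.41, 5.75 and 5.79 against 6.60, 6.92 and 7.12 FPKM, and in 786-O at 15.7, 15.9 and 15.6 against 14.7, 12.2 and 11.4 FPKM. For all 3, the silenced libraries lay above the controls in 5637 and below them in 786-O. The 786-O call of MRPS9 (limma adjusted p = 0.0263) was lost when shCBX7 library 2 or 3 or any 1 control library was left out, with an adjusted p of up to 0.084.

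MRPS15 and MRPS25 fell in both lines. MRPS15 (ENSG00000116898, chromosome 1, 36455718 to 36464437, minus strand), the counterpart of a bacterial protein that binds small subunit RNA directly, went in 786-O from 40.3, 35.7 and 38.1 FPKM to 24.8, 26.1 and 26.6 FPKM (log2 change -0.54, SE 0.06, limma adjusted p = 1.96e-04). In 5637 it went from 20.1, 19.8 and 19.2 to 18.0, 18.1 and 18.6 FPKM (log2 change -0.11, SE 0.02, limma adjusted p = 0.0119). The arms were separate in both lines, and the fall was larger in 786-O (difference 0.43 on the log2 scale, limma adjusted p = 1.17e-04). MRPS25, found only in mitochondria, went from 8.001, 7.69 and 7.15 to 5.30, 5.00 and 5.79 FPKM in 786-O (log2 change -0.44, limma adjusted p = 0.00123) and from 4.10, 4.37 and 4.34 to 3.81, 3.94 and 3.97 FPKM in 5637 (log2 change -0.10, limma adjusted p = 0.0405). The 5637 call of MRPS25 was lost when any 1 silenced library, or control library 2 or 3, was left out, with an adjusted p of up to 0.116.

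The difference between the effects in the lines was tested itself, with a limma interaction term fitted to the 12 libraries together. It passed in 60 of 78 members (76.9%), against 53.3% of all 12777 genes tested. In 55 of them the 5637 effect was the higher (29% of all genes) and in 5 the lower (24.3% of all genes), and 22 of 29 small and 38 of 49 large subunit genes were called. The median difference, 5637 minus 786-O, was 0.37 on the log2 scale, against 0.02 for all genes. MRPS11 differed by 1.48 (SE 0.08, limma adjusted p = 8.13e-08), MRPL20 by 1.31 (SE 0.09, 3.48e-07) and MRPS12 by 1.27 (SE 0.09, 3.61e-07). MRPL3 followed with 0.72 (SE 0.06, limma adjusted p = 1.40e-06), then MRPL11 with 0.48 (SE 0.06, 2.70e-05) and MRPL30 with 0.62 (SE 0.08, 3.51e-05). MRPL11 lies at the base of the stalk that receives elongation factors. It was at 20.8, 22.8 and 22.8 in the control and 22.5, 21.9 and 22.5 FPKM in the silenced libraries of 5637, and at 37.2, 35.9 and 38.8 against 26.3, 27.0 and 26.5 FPKM in 786-O. Its arms overlapped in 5637 and were separate in 786-O.

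Set side by side, the subunits leaned the same way within a line. In 786-O, 15 of 29 small subunit genes fell and 3 rose (median -0.20), while 30 of 49 large subunit genes fell and none rose (median -0.30). Without sh control library 1, 2 large subunit genes were called higher there. In 5637, 12 of 27 small subunit genes rose and 4 fell (median 0.05), and 19 of 48 large subunit genes rose and 3 fell (median 0.07). The difference of the medians, small minus large, was 0.09 in 786-O and -0.02 in 5637. With MRPS30 and MRPS18A moved to the large subunit and MRPS36 left out, it was 0.12 and -0.02, with 13 of 26 small and 31 of 51 large subunit genes lower in 786-O. Members classed as bacterial in origin and those classed as mitochondrial had medians of -0.28 (n = 45) and -0.28 (n = 32) in 786-O. In 5637 the medians were 0.13 (n = 44) and 0.04 (n = 30), and 22 and 9 rose. The mitochondrial class includes MRPS18A and MRPS18B, paralogues of MRPS18C of the bacterial class, and the former release factor MRPL58. It is therefore not a set found only in mitochondria.

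Summed over the members of a subunit, mean FPKM leaned the same way as the counts, but only the large subunit sums were separate between arms. The large subunit summed to 1847 to 2030 FPKM in the control and 1568 to 1662 FPKM in the shCBX7 libraries of 786-O, 84.4% of the control mean, and to 690 to 712 against 745 to 762 FPKM in 5637, 108% of it. In neither line did the large subunit sums overlap between arms. The small subunit summed to 735 to 819 against 719 to 751 FPKM in 786-O (95.0%), with overlap, and to 354 to 364 against 363 to 384 FPKM in 5637 (105%), with overlap at the edge. MRPS34, MRPS18B and MRPS6 rose within the 786-O small subunit sum, and MRPS34 had the highest level of the 3, at 152 ± 17.1 FPKM in the control and 205 ± 2.66 FPKM in the silenced libraries (SD, n = 3). The ratio of the large to the small sum was 2.49 ± 0.0165 in the control and 2.22 ± 0.116 in the silenced libraries of 786-O, and 1.95 ± 0.00768 and 2.01 ± 0.0556 in 5637 (SD, n = 3). The small subunit sums of 786-O had means of 772 FPKM in the control and 733 FPKM in the silenced libraries. MRPS34 alone thus weighs heavily in these sums and in the 786-O ratio, and neither was computed without it. The overlap of the small subunit sums and the lower ratio in 786-O are therefore not read as a difference between the subunits.

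**Figure D4:**
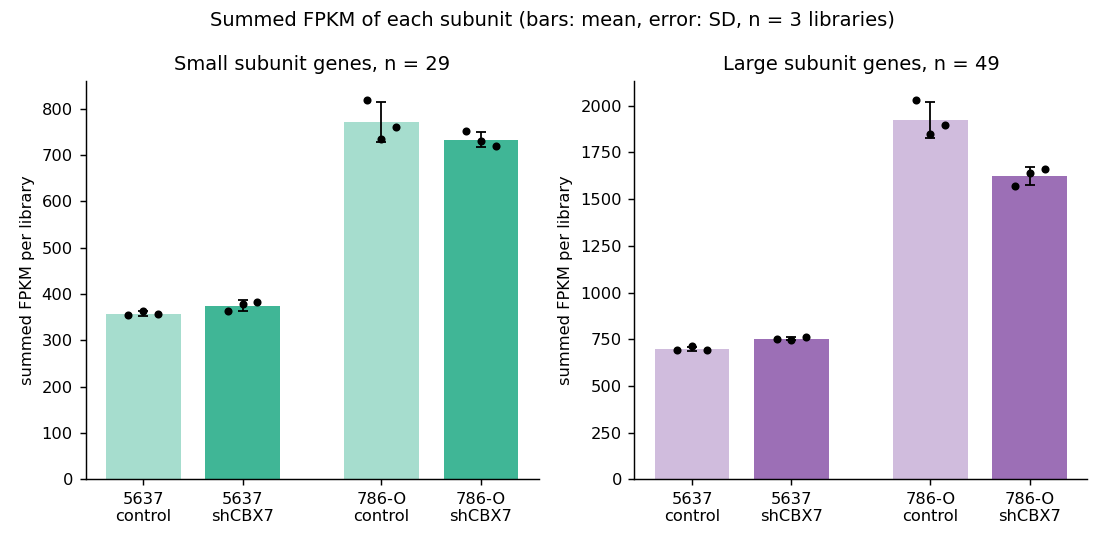
Summed FPKM per library of the 29 small (left) and 49 large (right) subunit genes by line and arm; bars are means, error bars SD (n = 3) and dots libraries, with axes that start at 0. The large subunit sum is lower after silencing in 786-O (1568 to 1662 against 1847 to 2030) and higher in 5637 (745 to 762 against 690 to 712).

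By their place in the ribosome, in groups put together after the values were seen, 15 of 24 members at 5 functional sites fell in 786-O (62.5%, against 26.2% of all genes) and none rose. In 5637, 11 of 23 tested rose (47.8%, against 24.4%) and 2 fell. Of all members tested, 57.7% fell in 786-O and 41.3% rose in 5637, so the shares at the sites were near those of the whole family. These groups are a description, with no test. In the group at or near the peptidyl transferase centre, MRPL2, MRPL3, MRPL16 and MRPL27 fell and MRPL4 did not pass, with a group median of -0.30. In 5637, MRPL3, MRPL4 and MRPL16 of this group rose (median 0.16). In the stalk that recruits elongation factors, MRPL10 and MRPL11 fell in 786-O (median -0.38), and MRPL12 rose in 5637 (median 0.01). Around the polypeptide exit and its membrane anchor, MRPL45, which tethers the ribosome to the inner membrane, and MRPL47 fell in 786-O (median -0.23), and MRPL22, MRPL24 and MRPL47 rose in 5637 (median 0.23). In the central protuberance, 5 of 6 fell in 786-O (MRPL18, MRPL40, MRPL46, MRPL48 and MRPL58; median -0.33), of which the calls of MRPL18 and MRPL46 were lost under 11 and 5 of the alternatives, while in 5637 MRPL40 and MRPL58 rose and MRPL38 fell (median 0.08). Around the decoding centre and message channel, MRPS11 and MRPS12 fell in 786-O (median -0.20 over 5), and MRPS7 and MRPS12 rose and MRPS5 fell in 5637 (median 0.14 over 4). Medians of all genes were -0.01 in 786-O and 0.01 in 5637, so that the 5637 median of the stalk was that of all genes.

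MRPS18 has 3 paralogues in human cells, of which A is in the large and B and C are in the small subunit. MRPS18A fell in 786-O, from 31.0, 24.2 and 24.4 FPKM to 19.5, 15.9 and 16.6 FPKM (log2 change -0.58, limma adjusted p = 0.00353), and rose in 5637, from 9.05, 8.06 and 8.41 to 9.49, 10.4 and 10.3 FPKM (log2 change 0.22, limma adjusted p = 0.00952). MRPS18B rose in 786-O, as given above. MRPS18C was at 4.42, 4.34 and 3.69 against 3.68, 3.50 and 3.63 FPKM in 786-O, where it did not pass the test although the arms were separate (log2 change -0.16, limma adjusted p = 0.0988). In 5637 it rose, from 1.45, 1.59 and 1.44 to 1.76, 2.09 and 2.04 FPKM (log2 change 0.25, limma adjusted p = 0.0108). The paralogues thus did not share a direction in 786-O. Without sh control library 3, MRPS18C was called lower in 786-O (log2 change -0.22, limma adjusted p = 0.0298).

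Levels among members spanned a wide range. FPKM are divided by the listed length of the gene, which is 959 bases for MRPL14 and 16393 for MRPL42. The order of levels given here is that of FPKM and depends on these lengths too. In 786-O control libraries the median member was at 26.5 FPKM, and MRPL14 (180, 162 and 162 FPKM) and MRPS34 were the most abundant over all 6 libraries. The lowest were MRPL53 (1.20, 1.22 and 1.04 FPKM, and 0.941, 1.07 and 0.626 FPKM after silencing, on 15 to 30 reads) and MRPL38. MRPL53 overlaps CCDC142 on the same strand, and the part of shared reads in its level was not tested. MRPL14 was at 161, 170 and 180 FPKM after silencing, with overlapping arms. In 5637 control libraries the median member was at 10.3 FPKM. The most abundant there were MRPS26, at 52.4, 56.1 and 53.2 in the control and 50.5, 58.9 and 57.8 FPKM in the silenced libraries, and MRPL18, at 48.0, 52.7 and 51.5 against 51.1, 57.9 and 55.5 FPKM. Neither passed the test in 5637, and their arms overlapped. In 786-O both were lower: MRPS26 went from 78.4, 69.9 and 78.8 to 63.2, 65.1 and 63.6 FPKM (log2 change -0.24, limma adjusted p = 0.00941). MRPL18 went from 101, 95.7 and 94.0 to 87.0, 89.6 and 89.6 FPKM (log2 change -0.13, limma adjusted p = 0.0489), a call lost when any 1 library was left out (adjusted p up to 0.138). MRPL14 in 5637, at 24.2, 26.6 and 25.7 against 25.3, 24.9 and 27.2 FPKM, also had overlapping arms.

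In 5637, 3 members were too low to be tested. MRPL53 was listed at 0 in all 6 libraries, and MRPS24 was at 0.414 ± 0.0032 in the control and 0.351 ± 0.0124 FPKM in the silenced libraries (SD, n = 3). On the same strand, MRPL53 overlaps CCDC142, which was at 2.52 FPKM in the control and 3.31 FPKM in the silenced libraries of 5637. MRPS24 overlaps URGCP-MRPS24 on its strand. The part of shared reads was not tested, so these low values are not read as absence of expression. MRPS18B was listed at 0, 0.0367 and 0 FPKM in the control and 0.0268, 0 and 0.0163 FPKM in the silenced libraries, that is 0 to 2 reads, although it is among the better expressed members in 786-O. It lies on chromosome 6. Within 2500000 bases of it on either side, 36 of 41 protein-coding genes (87.8%) with at least 10 FPKM in 786-O were below 0.5 FPKM in 5637. Elsewhere this held for 124 of 3919 genes (3.16%). The cause was not tested, so the 5637 values of MRPS18B are not read as its expression, and its difference between the lines (-0.42 on the log2 scale, limma adjusted p = 1.27e-04, 0.0767 with a pseudocount of 0.1) is the 786-O effect set against values near 0.

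Neighbours and promoter strings were set beside the changes as a description. MRPS11 and MRPL46, a large subunit gene, start 34 bases apart on opposite strands, by the gene positions in the table. MRPL46 also fell in 786-O, from 1.34 ± 0.216 to 0.855 ± 0.0914 FPKM (SD, n = 3, log2 change -0.33, limma adjusted p = 0.0197), a call lost without shCBX7 library 1 or 2 or control library 1 or 2 (adjusted p up to 0.0648). In all, 29 members have a protein-coding gene that starts on the other strand within 1000 bases. Leaving out the pair of MRPS11 and MRPL46, there were 12 pairs in which the member fell in 786-O and the partner was tested. The partner fell in 3 of them and rose in 1, against 26.2% and 24.7% of all genes, so that falls of partners were near the background. Those that fell were NCAPD2, beside MRPL51, with a log2 change of -0.95, EME1, beside MRPL27, with -0.44, and TCP1, beside MRPL18, with -0.43. The partner that rose was APBA3, beside MRPL54 (0.29). Among members with CCGGAAG in the promoter, 21 of 29 fell in 786-O (median -0.34), and among the others 18 of 40 (median -0.16). In 5637, 14 of the 29 rose (median 0.14) and 13 of the 40 (median 0.03). For AAGATGGC, 9 of 20 with the string and 30 of 49 without it fell in 786-O (medians -0.20 and -0.29). For the GC box, 21 of 42 with it and 18 of 27 without it fell in 786-O (medians -0.17 and -0.33). No test was run on these splits, which were 3 of the 13 strings.

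Copies and overlaps limit single genes. In the 786-O table, 34 members have pseudogenes, 75 in all, and the handling of reads that fit both is not given in the sources used here. By gene start and end, a listed gene overlaps 38 members on the opposite strand and 23 on the same strand.

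The rest of the machinery of mitochondrial translation was followed by lists that were drawn up with earlier results of these data known. They are set beside all genes tested, of which 24.7% rose and 26.2% fell in 786-O, and 24.4% rose and 20.2% fell in 5637, as a description with no test. Of 5 subunits with other names, PTCD3, AURKAIP1 and CHCHD1 fell in 786-O and none rose, and none was called in 5637. AURKAIP1, for example, went from 200, 165 and 175 to 132, 130 and 145 FPKM in 786-O (log2 change -0.40, limma adjusted p = 0.00387), and PTCD3 from 4.21, 5.07 and 4.57 to 3.44, 3.05 and 3.14 FPKM (-0.41, 0.00265). CHCHD1 went from 44.8, 43.9 and 42.6 to 34.98, 40.7 and 37.9 FPKM (-0.21, limma adjusted p = 0.0242). Of the translation factors, 12 of 20 tested fell and 1 rose in 786-O (median -0.25), while in 5637 6 of 19 rose (31.6%) and 2 fell (median 0.03). SLIRP, which steadies mitochondrial messages together with LRPPRC, went from 33.4, 34.1 and 32.5 to 20.1, 19.6 and 21.7 FPKM in 786-O (log2 change -0.68, limma adjusted p = 4.23e-05). The ribosome recycling factor GFM2 had a log2 change of -0.65 there. MTIF2, the initiation factor, rose in 5637 from 9.31, 8.78 and 8.85 to 11.7, 12.3 and 12.4 FPKM (log2 change 0.40, limma adjusted p = 1.96e-04), and GUF1 rose by 0.18. OXA1L, the inner membrane insertase, fell in both lines, by 0.38 on the log2 scale in 786-O and by 0.17 in 5637.

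Among assembly factors of the mitochondrial ribosome, 12 of 29 tested fell and 2 rose in 786-O (median -0.17), and 12 of 27 rose and 3 fell in 5637 (median 0.11). GTPBP6 went from 40.1, 33.9 and 35.9 to 18.5, 17.4 and 20.05 FPKM in 786-O (log2 change -0.94, limma adjusted p = 5.62e-05), and RPUSD4, a pseudouridine synthase of the large ribosomal RNA, from 6.81, 5.74 and 5.70 to 2.78, 2.35 and 2.62 FPKM (log2 change -0.98, limma adjusted p = 6.01e-05). The helicase DHX30 had a log2 change of -0.64. In 5637 the helicase DDX28 rose from 2.51, 2.55 and 2.51 to 3.73, 3.83 and 3.95 FPKM (log2 change 0.46, limma adjusted p = 1.14e-04), and TRUB2 and MTERF3 rose by 0.36 each. Arms were separate in every gene given here with its libraries.

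Of the aminoacyl-tRNA synthetases of mitochondria and their helpers, 13 of 20 tested fell and none rose in 786-O (median -0.28), and 9 of 20 rose and none fell in 5637 (median 0.08). The tyrosine enzyme YARS2 (log2 change -0.65) and the glutamate enzyme EARS2 (-0.73) were among the leading genes in 786-O, and the alanine enzyme AARS2 (0.43) and the threonine enzyme TARS2 (0.27) in 5637. VARS2, which lies in the same stretch of chromosome 6 as MRPS18B, was listed at 0 in 5637.

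Nuclear regulators of mitochondrial biogenesis fell in 6 of 11 tested and rose in 1 in 786-O (median -0.21). In 5637, 2 of 14 rose and 1 fell (14.3% and 7.14%, both below the shares of all genes), with a median of 0.01, as for all genes. PPRC1, a coactivator related to PGC-1, went from 6.72, 7.03 and 5.93 to 2.86, 2.79 and 2.66 FPKM in 786-O (log2 change -1.001, SE 0.07, limma adjusted p = 2.62e-05). HCFC1, a cofactor of several promoter-bound factors, went from 3.44, 3.19 and 3.30 to 1.67, 1.60 and 1.45 FPKM (log2 change -0.74, limma adjusted p = 7.19e-05), and NRF1 from 4.65, 5.17 and 5.23 to 3.64, 3.33 and 3.65 FPKM (log2 change -0.41, limma adjusted p = 0.00139). Every silenced library was below every control for these 3. In 5637 GABPB1, a partner of the ETS factor GABPA, rose by 0.18 on the log2 scale, TFB2M rose by 0.13 and YY1 fell by 0.12.

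Mitochondrially encoded RNA was measured in 786-O. None of the 15 symbols was found among the genes listed for 5637, so no values can be given for that line. Of 15 genes, 2 rose and 3 fell (median -0.06), that is 13.3% and 20%, both below the shares of all genes. The 2 that rose were the ribosomal RNAs around which the members assemble: MT-RNR2 of the large subunit went from 1892, 2324 and 2302 to 2959, 3138 and 2906 FPKM (log2 change 0.47, SE 0.09, limma adjusted p = 0.00279), and MT-RNR1 of the small subunit from 561, 652 and 660 to 760, 799 and 752 FPKM (log2 change 0.31, SE 0.07, limma adjusted p = 0.00819). The arms did not overlap in either. MT-ND5, MT-ND6 and MT-CO1 fell, with log2 changes of -0.41, -0.36 and -0.20, and the sum of all 15 was 24298 to 28727 FPKM in the control and 26262 to 27117 FPKM in the silenced libraries. How ribosomal RNA was removed or messages selected before sequencing was not given in the sources used here; its part in the ribosomal RNA values was not tested.

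**Figure D5:**
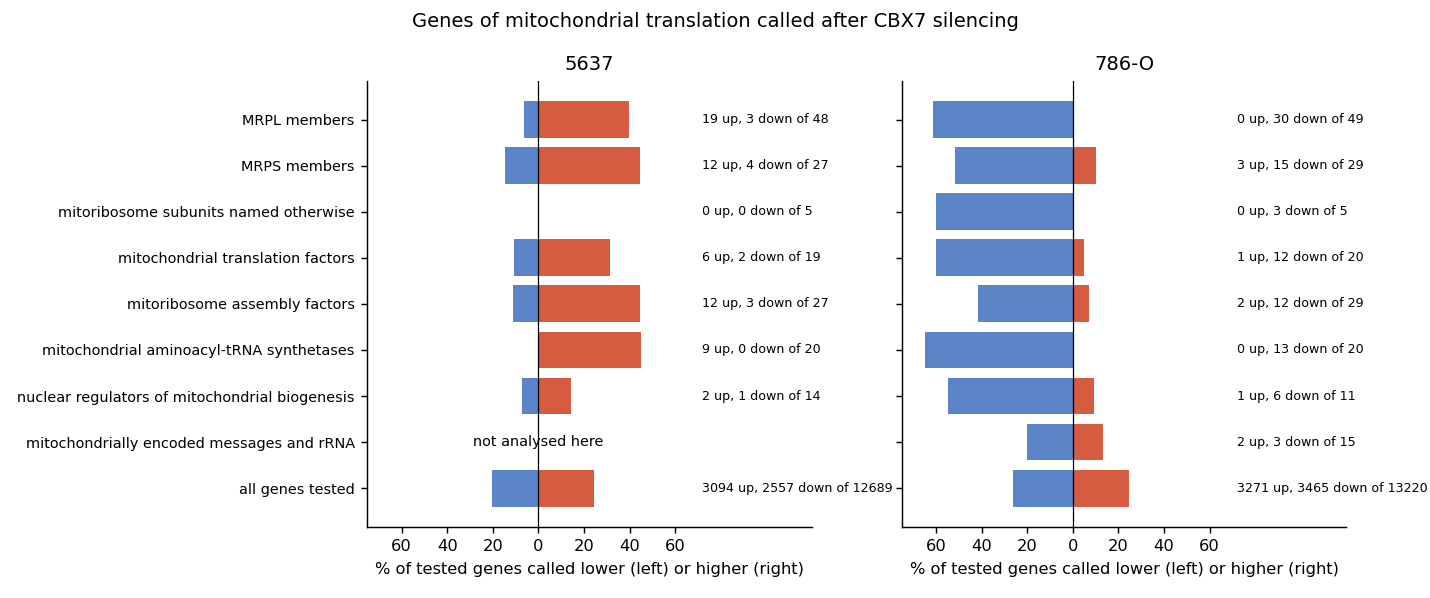
Share of tested genes called lower (bars to the left) or higher (bars to the right) by limma at an adjusted p under 0.05, for the members by subunit, 6 other lists of mitochondrial translation and all genes tested, in 5637 (left) and 786-O (right), with the counts beside each bar. In 786-O most lists have longer bars on the left than all genes (26.2% lower), and in 5637 several have longer bars on the right than all genes (24.4% higher).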

How the data were processed

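Gene-level FPKM were computed and deposited by the authors, with 1 table per line (per the file headers). Aligner, counter and strand setting: not given in the sources used here. Per the submitters' processing notes the build was mm10 (mouse), but every 786-O gene, 58735 in all, has the position it has in GENCODE release 29 (GRCh38), so that build is used. The members and all lists were chosen with earlier results of these data known. Genes averaging 0.5 FPKM or more in a line were tested on log2(FPKM + 1) with limma 3.58.1 (R 4.3.3, mean-variance trend, two-sided), each line on its own, with Benjamini-Hochberg adjustment over all genes tested; fold changes on this scale understate those of low genes. Lines were compared through the interaction term over the 12 libraries. Reads were recovered from the steps of FPKM (tolerance 0.01): all genes of 786-O and 93.9% of 5637, MRPL28 not among the latter. They served for depth and a voom alternative. Control columns of 5637 could be tied to their group but to no single sample, so their numbers are those of the table. Fully described members were the 6 largest rises and falls per line, those called in both lines (6 opposite, 2 alike), the 6 smallest p of the difference, the extremes of level and the MRPS18 paralogues. Of each list, up to 3 called genes with the smallest p per line are named. MT-ND6, MT-CO1, SARS2, NCAPD2, EME1, TCP1, APBA3 and the genes named by promoter or place were chosen after their values were seen. Alternatives were a pseudocount of 0.1, no filter, quantile normalization, median centring, no trend, each library left out and, in 786-O, the replicate number as a block. The test was checked on simulated data.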

Additional observations from a re-analysis of the deposited data

Results flagged for a closer look

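The effect of CBX7 silencing differed between the lines in 60 of 78 members by limma's interaction term (adjusted p under 0.05). The values that follow are log2 differences, the 5637 effect minus the 786-O effect, for the members described in full. Differences above 1 were found in MRPS11 (1.48), MRPL20 (1.31) and MRPS12 (1.27). Next came MRPS18A (0.80), MRPL1 (0.77), MRPL3 (0.72), MRPL54 (0.70), MRPL13 (0.69), MRPL33 (0.69) and MRPL30 (0.62). MRPL58 (0.59), MRPS22 (0.55), MRPS9 (0.53), MRPL11 (0.48), MRPL15 (0.45), MRPS15 (0.43), MRPS17 (0.42) and MRPS18C (0.41) followed. The smallest positive differences among them were those of MRPL24 (0.37), MRPS25 (0.33), MRPS26 (0.28) and MRPL18 (0.24). The effect was lower in 5637 for MRPS6 (-0.45), MRPS18B (-0.42), MRPS34 (-0.39), MRPL34 (-0.27) and MRPS5 (-0.24). Their limma adjusted p ran from 8.13e-08 (MRPS11) to 0.0184 (MRPL34). That of MRPS18B rests on 5637 values near 0.

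The summed FPKM of the large subunit moved apart in the lines, to 108% of the control mean in 5637 and 84.4% in 786-O, with every silenced library above every control in 5637 and below in 786-O. The sum over all members did the same, at 107% and 87.4%. The difference of these sums between the lines was not tested.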

How the results depend on the processing

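Kept under every alternative run were 39 of 48 calls in 786-O, 29 of 38 in 5637 and 55 of 60 for the difference between lines. No change of a member called in the main or the alternative run reversed its sign. Changes of sign in members called in neither run were not counted. With 1 library left out, members called ranged from 41 to 46 in 786-O, 33 to 37 in 5637 and 57 to 61 for the difference. The number higher in 786-O, 3, ranged from 3 to 5 with 1 library left out (5 without sh control library 1) and was 5 with voom on recovered reads. The number of large subunit genes higher in 786-O, 0, ranged from 0 to 2 with 1 library left out and was 1 with quantile normalization, 2 with voom and 1 with the replicate block. With the replicate number as a block in 786-O, 48 members were called, 44 of them lower, and 6723 of 13220 genes in all against 6736 without it. Same-numbered libraries there correlated at 0.083, 0.077 and 0.057 in their deviations, each best with its own number, a hint from the data and not the design. No paired analysis was possible because, in 5637, the control titles all end in the same number and the numbered control columns can be tied to no one sample. Depth limits the members under 100 reads in a library, 2 in 5637 and 5 in 786-O. Scaling moved the split of all genes in 5637 from 3094 higher and 2557 lower to 2767 and 2885 with median centring, and in 786-O from 3271 and 3465 to 3364 and 3353.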
